A study of Homo sapiens with 12 samples.

Results

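The genes described here encode the respiratory chain, the protein complexes I to IV that carry electrons to oxygen in the inner mitochondrial membrane, together with the ATP synthase (complex V). They were taken as every protein-coding gene of the deposited table whose symbol begins with MT-ND, MT-CO, MT-ATP, MT-CYB, NDUFA, NDUFB, NDUFC, NDUFS, NDUFV, UQCR, COX4, COX5, COX6, COX7, COX8 or ATP5, or is SDHA, SDHB, SDHC, SDHD or CYC1. This gave 108 of the 20595 genes. Of these, 13 are encoded by mitochondrial DNA and 80 are nuclear encoded subunits, with 35 in complex I, 4 in complex II, 9 in complex III, 15 in complex IV and 17 in complex V. The other nuclear encoded members are 8 complex I assembly factors, 2 readthrough genes and 5 genes of other kinds, among them ATP5IF1 and NDUFA4L2. The symbols also take NDUFA1, NDUFA8, UQCRFS1, COX8A and COX8C, for which no row was found in the table, so they could not be analysed.

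Complexes I, III, IV and V are built from subunits of both genomes, whereas complex II is entirely nuclear encoded. The mitochondrial messages are cut from long transcripts of both DNA strands and translated inside the organelle, and most of them receive poly-A tails. The nuclear messages are translated in the cytosol and their proteins imported. In tumor cells, oxidative phosphorylation supplies ATP and also the oxidized cofactors needed for growth.

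RNA was sequenced from A549 and H1792, human lung adenocarcinoma (LUAD) cell lines with MDM2 amplification. A549 carries wild-type p53 (p53 WT), while H1792 carries a mutant form. Cells were kept for 48 h in DMSO or in 1 μM RG7112, a nutlin-family drug that blocks the p53-binding pocket of MDM2, with 3 replicates in each of the 4 groups and 12 samples in all. The dose is that of the sample labels, whereas the column names of the deposited table carry a text (0_1uM) that could be read as a lower dose. Each p53 status is represented by 1 cell line, so cell line and p53 status cannot be told apart. The labels name no separate cultures, and the p-values therefore measure the spread between these samples, which may be technical. Poly-A RNA was selected before sequencing, and the deposited values are estimated counts per gene, with totals of 2011916 to 6218825 counts per sample. Levels are given as CPM, the count scaled to a fixed library total after TMM normalization, in the order of replicates 1, 2 and 3, and errors are SDs over 3 replicates unless named as standard errors (SE). A gene is said to have risen or fallen where edgeR's quasi-likelihood test gave a Benjamini-Hochberg adjusted p under 0.05 over all genes tested.

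The p53 target CDKN1A, a cell cycle inhibitor, rose in A549 with RG7112 from 37.1 ± 11.3 to 444 ± 429 CPM (n = 3). Its RG7112 replicates were at 202, 189 and 939 CPM. In H1792 it stood at 7.62 ± 6.08 and 7.88 ± 3.61 CPM and did not pass the test. All 6 epithelial markers examined had counts in every group, and their summed level was 14443 to 18919.7 CPM with DMSO and 17056 to 23995 CPM with RG7112 in A549. In H1792 it was 1814 to 2181 CPM with DMSO and 1067 to 1334 CPM with RG7112, without overlap, and 4 of the 5 epithelial markers tested fell. The part of these markers in the results on H1792 was not tested. Of 5 leukocyte and 4 endothelial markers, summed levels stayed at or under 23.7 and 1.9 CPM, whereas 5 fibroblast markers, mainly collagens, summed to 1359.9 to 1423 CPM with DMSO and 1115 to 1286 CPM with RG7112 in H1792, and to 4.98 to 9.02 and 1.43 to 4.06 CPM in A549. Their part in the results was not tested either. Replicate 3 of A549 stood apart from replicates 1 and 2 of the same treatment across the genes of the table, not only in members. The chi-square per degree of freedom between it and the others was 17.2 to 25.6. Between replicates 1 and 2 it was 5.93 with DMSO and 5.38 with RG7112. Values without replicate 3 are given where they matter.

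The 3' ends of the mitochondrial messages are shown because these libraries were made from poly-A RNA, and in some of them the tail completes the stop codon. The last 18 bases of each gene are given 5' to 3' in the direction of the message, from the GENCODE v29 annotation of GRCh38, with the bases of the stop codon in capitals. In 6 genes the DNA holds only T or TA of the stop codon, which leaves the rest to the tail.
MT-ND1: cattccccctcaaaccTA
MT-ND2: ttatactaataatcttaT
MT-CO3: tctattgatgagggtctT
MT-ND3: gattagactgaaccgaaT
MT-ND4: ttaccgggttttcctctT
MT-CYB: aaatactcaaatgggccT
The other 7 are annotated with complete stop codons, AGA and AGG among them, which are arginine codons outside mitochondria.
MT-CO1: gtatacataaaatctAGA
MT-CO2: cccgtatttaccctaTAG
MT-ATP8: ttgcccccacaatccTAG
MT-ATP6: ctgcacgacaacacaTAA
MT-ND4L: aacctactccaatgcTAA
MT-ND5: ctactcctaatcacaTAA
MT-ND6: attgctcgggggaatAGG
MT-ND6 (chrM:14149-14673) is the only member on the minus strand, and the other 12 lie on the plus strand between chrM:3307 (MT-ND1) and chrM:15887 (MT-CYB). No strand setting is stated for the counting, so reads from the opposite strand of a mitochondrial gene cannot be told apart from its own. Whether the counts of MT-ND6 came from a tailed message of its own strand was not tested.

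Pairs of reading frames that lie on the same message also share bases, and their counts are therefore not independent. Below, message stands for the counts of a gene, so the frames of such a pair are listed apart. MT-ATP8 and MT-ATP6 overlap by 46 bases at chrM:8527-8572 on the plus strand, given in capitals with 10 bases on each side.
MT-ATP8/MT-ATP6: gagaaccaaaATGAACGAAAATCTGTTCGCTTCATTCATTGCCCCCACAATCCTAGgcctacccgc
MT-ND4L and MT-ND4 overlap by 7 bases at chrM:10760-10766, where the start of the second frame lies inside the end of the first.
MT-ND4L/MT-ND4: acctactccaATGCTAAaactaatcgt
An overlap of 1 base, at chrM:9207, joins MT-ATP6 to MT-CO3. Nuclear copies of mitochondrial DNA can also take or give reads, and this part of the counts was not tested.

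The mitochondrially encoded genes took a larger part of all counts in A549 than in H1792, and a larger part with RG7112 than with DMSO in A549. With DMSO, the 13 genes held 2.85, 2.32 and 2.12% of all counts in the A549 replicates, and with RG7112 6.95, 6.4 and 5.48%. The means were 2.43 ± 0.378% and 6.28 ± 0.744% (n = 3), and the groups did not overlap. In H1792 the values were 1.01, 1.08 and 0.766% with DMSO and 0.897, 1.08 and 1.29% with RG7112, and these groups overlapped. The 80 nuclear encoded subunits held 0.875 ± 0.0989% and 0.72 ± 0.0387% of the counts in A549, and 1.34 ± 0.0389% and 1.11 ± 0.0671% in H1792 (DMSO and RG7112, n = 3). In both cell lines, all RG7112 samples lay below all DMSO samples in this share. In bulk RNA, a change in the cells present and a change in the RNA of each cell cannot be told apart.

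The ratio of mitochondrial to nuclear counts was 3.49, 2.85 and 2.14 in A549 with DMSO and 10.1, 8.99 and 7.19 with RG7112. In H1792 it was 0.783, 0.801 and 0.558 with DMSO and 0.757, 0.984 and 1.22 with RG7112, so that replicate 1 with the drug lay among the DMSO samples. On the log2 scale the mean ratio moved by 1.65 in A549 and by 0.46 in H1792, of which 0.14 was left after a correction for GC content. This ratio is a description without a test, since it sums over the members. Per length, the mean level of the 13 mitochondrial genes in A549 was 1851 ± 185 CPM per kb with DMSO and 4907 ± 245 CPM per kb with RG7112. For the nuclear encoded subunits it was 146 ± 25.7 and 126 ± 16.9 CPM per kb. In H1792, the mean level of the mitochondrial genes was 992 ± 199.9 CPM per kb with DMSO and 809 ± 113 CPM per kb with RG7112, and that of the nuclear encoded subunits 255 ± 15.5 and 169 ± 17.4 CPM per kb. The unscaled share of the mitochondrial genes there had means of 0.952% with DMSO and 1.09% with RG7112. The TMM factors were 0.838 to 0.902 with DMSO and 1.05 to 1.13 with RG7112. The direction for the mitochondrial genes of H1792 thus depended on the scaling.

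**Figure D1:**
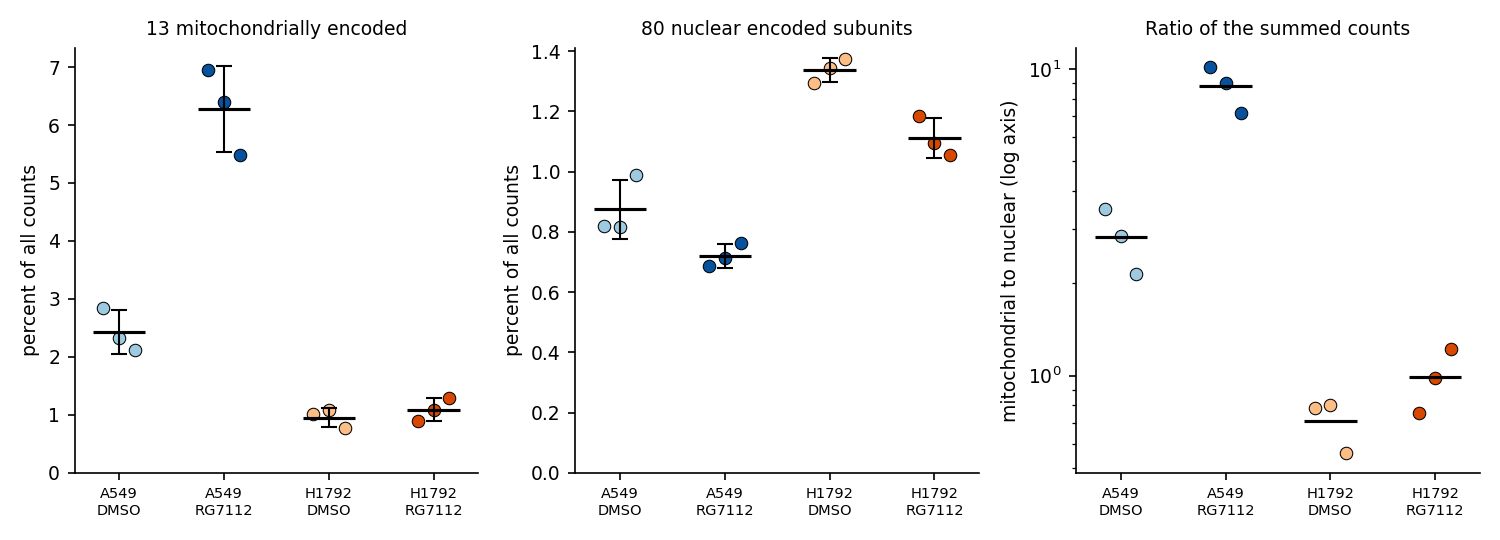
Share of all counts held by the 13 mitochondrially encoded genes (left, percent), by the 80 nuclear encoded subunits (middle, percent) and the ratio of their summed counts (right, log axis) in each sample. Points are the 3 replicates of a group, horizontal lines are means and error bars are SDs, and the A549 samples with RG7112 stand highest in the left and right panels, at 5.48% or more and at a ratio of 7.19 or more.

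In A549, 12 of the 13 mitochondrially encoded genes rose with RG7112, whereas no nuclear encoded member passed the test in the main fit. This was 12 of 92 members tested, against 8.38% of all 10739 genes that changed in either direction, 4.35% that rose and 4.03% that fell. The log2 fold changes of the 12 lay between 1.26 and 1.73, and their RG7112 samples all exceeded their DMSO samples. That separation comes from the same samples as the test and adds no support to it. The share of all genes without overlap was not counted. With an absolute log2 fold change over 1 also asked, the 12 remained, against 6.19% of all genes. The median over the 13 genes was 1.49, over the 67 nuclear encoded subunits tested -0.17, and over all genes tested -0.01.

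Complex I contains 7 mitochondrially encoded subunits, all of them in its proton-pumping membrane arm. MT-ND1 was at 1805, 1563 and 1483 CPM with DMSO and at 5406, 4865 and 5808 CPM with RG7112 in A549 (log2 fold change 1.73 ± 0.14 (SE), adjusted p = 0.000881). The MT-ND1 samples of each treatment lay close together and the treatments stood well apart. MT-ND2 was at 882, 683 and 952 CPM with DMSO and 2431, 2135 and 2647 CPM with RG7112 (log2 fold change 1.52 ± 0.17 (SE), adjusted p = 0.00276). MT-ND4 was at 1104, 842 and 795 CPM with DMSO and 3348, 2886 and 2449.5 CPM with RG7112 (log2 fold change 1.67 ± 0.18 (SE), adjusted p = 0.00298). MT-ND4L, whose frame runs into that of MT-ND4, was at 214, 166 and 132 CPM with DMSO and 609.6, 513 and 343 CPM with RG7112 (log2 fold change 1.52 ± 0.26 (SE), adjusted p = 0.0158). In both of these genes, replicate 3 was the lowest of its treatment.

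MT-ND5 was at 406, 300.3 and 183 CPM with DMSO and 1193, 1078 and 643 CPM with RG7112 in A549 (log2 fold change 1.71 ± 0.34 (SE), adjusted p = 0.0266). Its replicate 3 was again the lowest in each treatment. MT-ND6, the minus-strand gene, was at 282, 208 and 290.5 CPM with DMSO and 781, 697 and 965 CPM with RG7112 (log2 fold change 1.65 ± 0.19 (SE), adjusted p = 0.00325), with the limit on strand named above. MT-ND3 was the exception. It was at 93.8, 35.4 and 367 CPM with DMSO and at 230.5, 149 and 259.7 CPM with RG7112 (log2 fold change 0.37 ± 0.74 (SE), adjusted p = 0.817), and DMSO replicate 3 exceeded all RG7112 samples. Its log2 fold change was 1.74 without that sample and -0.12 without DMSO replicate 2, short of the threshold in both (edgeR adjusted p = 0.0956 and 0.944). Its coefficient of variation with DMSO, 107%, was the highest of the mitochondrial genes, whose median was 24.2%.

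MT-CYB, the cytochrome b of complex III, was at 1079.5, 779 and 818 CPM with DMSO and 2815, 2487 and 2208 CPM with RG7112 (log2 fold change 1.49 ± 0.17 (SE), adjusted p = 0.00348). MT-CO1, the catalytic subunit of complex IV, was at 10782, 9296 and 6430.0 CPM with DMSO and 27173, 25981 and 19805 CPM with RG7112 (log2 fold change 1.46 ± 0.23 (SE), adjusted p = 0.0108). MT-CO2, which takes up electrons from cytochrome c, was at 2313, 1791 and 3622 CPM with DMSO and 6281, 5283 and 7708 CPM with RG7112 (log2 fold change 1.32 ± 0.28 (SE), adjusted p = 0.0326). These 3 messages had separate treatments, but replicate 3 was low for MT-CO1 and high for MT-CO2. MT-CO3 varied least and was at 5859.6, 5076 and 5147 CPM with DMSO and 12880.5, 11974 and 13633 CPM with RG7112 (log2 fold change 1.26 ± 0.13 (SE), adjusted p = 0.00199). For complex V, MT-ATP6, a part of the proton channel, was at 1178, 801 and 1578 CPM with DMSO and 3393, 2926 and 3488 CPM with RG7112 (log2 fold change 1.46 ± 0.24 (SE), adjusted p = 0.0142). MT-ATP8 was at 89.4, 75.7 and 41 CPM with DMSO and 226, 218 and 123 CPM with RG7112 (log2 fold change 1.46 ± 0.35 (SE), adjusted p = 0.0476). MT-ATP8 and MT-CO2 had the highest adjusted p of the 12 genes that rose.

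Under the 11 other settings of normalization, filter, tool, samples in the fit, block and correction, 11 or 12 mitochondrial genes rose. Of all genes, 4.67 to 13.3% were called under them. Leaving out 1 sample left 7 to 11, where 2.88 to 6.45% of all genes were called, against 8.38% in the main fit. There were 7 without DMSO replicate 2 and 7 without RG7112 replicate 1, where 2.88 and 3.9% of all genes were called. Without replicate 3 of both treatments 12 rose, and 10.8% of all genes were called. The calls of MT-CO3, MT-CYB, MT-ND1, MT-ND2, MT-ND4 and MT-ND6 held under all 18 alternatives. That of MT-ATP8 held under 11 of 18 and was lost without any 1 of the A549 samples except RG7112 replicate 3, and that of MT-CO2 held under 13 of 18 and was lost without any 1 except DMSO replicate 3. The other 4 calls held under 14 to 17 of 18. Scaled by library size only, 11 members rose and 4, all nuclear encoded subunits, fell, while 418 of all genes rose and 509 fell.

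**Figure D2:**
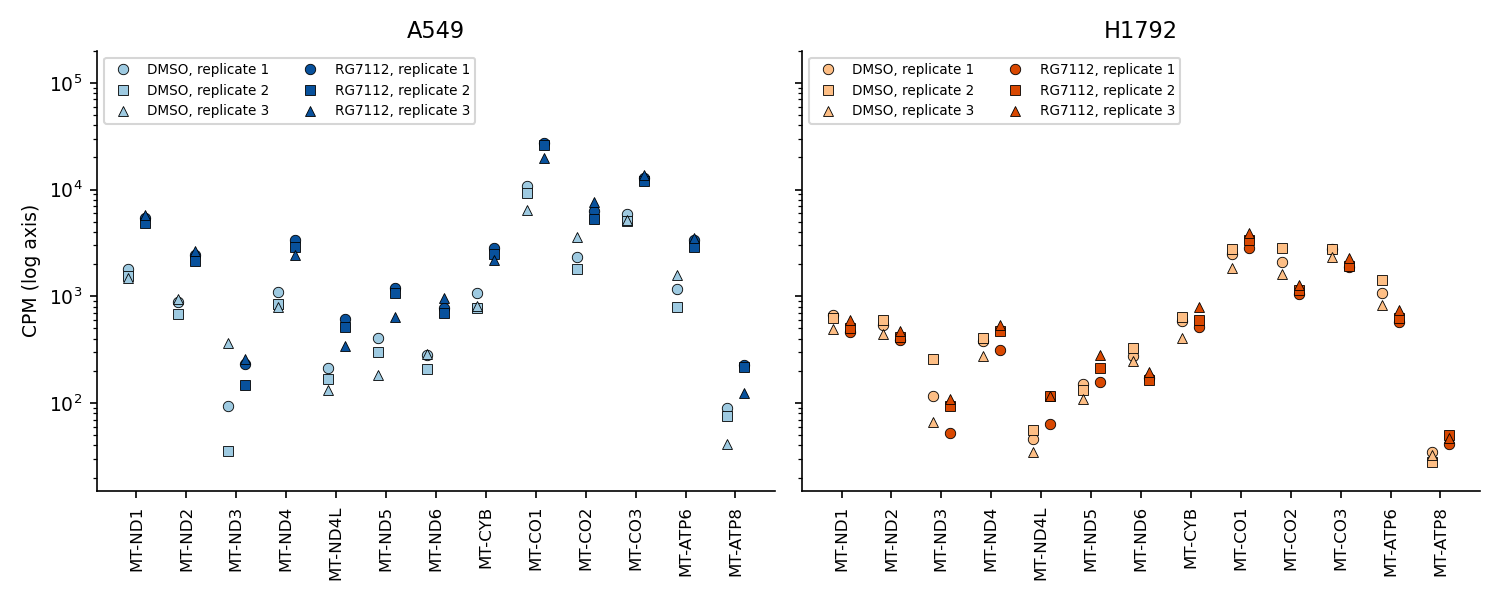
Level of each of the 13 mitochondrially encoded messages (CPM, log axis) in every sample of A549 (left) and H1792 (right), with light symbols for DMSO, dark symbols for RG7112 and a symbol shape for each replicate. In A549 the dark symbols lie above the light ones for every gene but MT-ND3, while in H1792 the treatments lie closer and in either order.

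In the main edgeR fit, none of the 79 nuclear encoded members tested in A549 passed, against 8.38% of all genes. Other edgeR settings called some of them. NDUFB10, a complex I subunit, was called lower with GC correction, with the replicate block, by library size only and without RG7112 replicate 3. It was at 292, 307 and 372 CPM with DMSO and 203, 194 and 266 CPM with RG7112 (log2 fold change -0.55). Without replicate 3 of both treatments, 1 nuclear encoded subunit was called higher and 2 lower. In that fit 625 of all 11096 genes were called higher and 571 lower. DESeq2 called 3 nuclear encoded subunits lower (ATP5F1A, ATP5F1C and NDUFA9), and 697 of all 16675 genes. In the main fit, 2 members stood higher and 13 lower at an unadjusted p under 0.05. The share of all genes at that unadjusted p was not counted, here or for the lists below. The nearest to the threshold was NDUFA9, a complex I subunit, with a log2 fold change of -0.65 and an adjusted p of 0.0537. The fit of all 12 samples shares the spread of both cell lines. In A549 it called 6 nuclear encoded subunits and the assembly factors NDUFAF4 and NDUFAF5 lower. These were 8 of 94 members tested, while 851 of all 11666 genes were called lower. The medians were -0.16 in complex I (30 tested), -0.21 in complex II (4), 0.02 in complex III (8), -0.22 in complex IV (9) and -0.24 in complex V (16).

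Among the core nuclear subunits, the flavoprotein NDUFV1, where NADH is oxidized, was at 184, 195 and 262 CPM with DMSO and 159.9, 198 and 267 CPM with RG7112 in A549. UQCRC1, a core protein of complex III, was at 205, 183 and 321 CPM with DMSO and 167, 203 and 234 CPM with RG7112, and cytochrome c1 (CYC1) was at 17.4, 28.8 and 27.6 CPM with DMSO and 14.2, 15.7 and 48.2 CPM with RG7112. Treatments overlapped in all 3. ATP5F1A, the alpha subunit of the ATP synthase head, was at 640.1, 660.3 and 789 CPM with DMSO and 544, 502 and 483 CPM with RG7112, without overlap but short of the threshold (log2 fold change -0.45 ± 0.13 (SE), adjusted p = 0.083). ATP5F1B, the catalytic beta subunit of the same head, was at 12.1, 59.2 and 125 CPM with DMSO and 56.5, 19 and 269 CPM with RG7112. Its values ran over more than an order of magnitude among replicates of the same treatment, and replicate 3 was the highest in both treatments. NDUFA4, a complex IV subunit named for complex I, was at 29.6, 18.9 and 19.1 CPM with DMSO and 21.6, 22.3 and 11.9 CPM with RG7112, with overlap.

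In H1792, RG7112 was followed by lower levels of many nuclear encoded subunits and by mixed changes of the mitochondrial ones. Of 92 members tested, 8 rose and 37 fell. Over all 9914 genes tested, 34.1% changed, 17.7% rose and 16.5% fell. Of 67 nuclear encoded subunits, 34 fell (50.7%) and 4 rose, with a median of -0.48 against 0.01 over all genes. Of the 13 mitochondrial genes, 4 rose and 3 fell, with a median of -0.11. None of the other 12 nuclear encoded members tested in H1792 passed in the main fit, also at an unadjusted p under 0.05 or with DESeq2. With the replicate block and GC correction, the assembly factor NDUFAF4 was called lower. GC correction without the block also called such a member lower. Leaving out 1 sample moved the count of 45 to between 26 and 45. It was 27 without DMSO replicate 3, 26 without RG7112 replicate 2 and 28 without RG7112 replicate 3, where 22.6, 18.3 and 19.7% of all genes were called. The fit with the replicate number as a block called 25 members and 18.6% of all genes. With an absolute log2 fold change over 1 also asked, 10 of 92 members changed, against 14.6% of all genes. Scaled by library size only, 13 members rose and 20 fell, while 2637 of all genes rose and 849 fell. With GC correction 1 member rose and 50 fell, while 1053 of all genes rose and 1636 fell. The counts of members thus shifted together with those of all genes.

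Among the mitochondrial messages of H1792, MT-ND4L was at 46.1, 56.2 and 34.4 CPM with DMSO and 64.2, 115 and 118 CPM with RG7112 (log2 fold change 1.19 ± 0.28 (SE), adjusted p = 0.0193). MT-ND5 was at 149.8, 132 and 110.1 CPM with DMSO and 158, 214 and 281 CPM with RG7112 (log2 fold change 0.81 ± 0.23 (SE), adjusted p = 0.0342). MT-CO1 was at 2481, 2748 and 1826 CPM with DMSO and 2831, 3341 and 3900.1 CPM with RG7112 (log2 fold change 0.59 ± 0.17 (SE), adjusted p = 0.0382). The treatments of these 3 genes, which rose, did not overlap, but the nearest samples lay close. MT-ATP8 rose as well, from 34.8, 28.1 and 32.6 to 41.2, 49.7 and 46.9 CPM (log2 fold change 0.61 ± 0.16 (SE), adjusted p = 0.028).

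The other mitochondrial genes of complexes IV and V had negative log2 fold changes. MT-CO2 was at 2079, 2809 and 1611 CPM with DMSO and 1046, 1149 and 1278 CPM with RG7112 (log2 fold change -0.82 ± 0.19 (SE), adjusted p = 0.0172). MT-ATP6 was at 1083, 1418 and 835 CPM with DMSO and 570.3, 632 and 741 CPM with RG7112 (log2 fold change -0.70 ± 0.19 (SE), adjusted p = 0.0297). Its counts thus fell while those of MT-ATP8, which shares 46 bases with it, rose. Both frames lie on the same RNA, and how reads were divided between them was not tested. MT-ND6 was at 275, 327 and 246 CPM with DMSO and 172, 166 and 195 CPM with RG7112 and fell (log2 fold change -0.60 ± 0.11 (SE), adjusted p = 0.00965). MT-CO3 was at 2799, 2798 and 2316 CPM with DMSO and 1893, 1908 and 2303 CPM with RG7112, without overlap but short of the threshold (log2 fold change -0.30 ± 0.11 (SE), adjusted p = 0.0781).

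For the remaining 5 messages the treatments overlapped in H1792. MT-ND1 was at 666, 629 and 497 CPM with DMSO and 464, 506 and 601 CPM with RG7112 and MT-ND2 at 544, 594 and 442 CPM with DMSO and 391, 419.8 and 478 CPM with RG7112. MT-ND3 was at 117, 261 and 66.6 CPM with DMSO and 52.9, 93.5 and 108 CPM with RG7112, and MT-ND4 at 377, 405 and 274 CPM with DMSO and 316, 472 and 542 CPM with RG7112. MT-CYB was at 591, 645 and 407 CPM with DMSO and 513, 602 and 787 CPM with RG7112. The adjusted p of these genes lay between 0.2 (MT-ND4) and 0.565 (MT-ND1).

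The calls among the mitochondrial messages of H1792 depended on the processing. With counts corrected for GC content, which moved the median of all genes to -0.12, none of them rose and 6 fell. MT-ATP8 then had a log2 fold change of -0.10. Scaled by library size only, which moved the median of all genes to 0.27, 4 rose and none fell. None rose without DMSO replicate 3, without RG7112 replicate 2 or without RG7112 replicate 3, and none rose with the replicate number as a block, whereas 1 to 4 fell in these fits. The calls held under 16 of 17 alternatives for MT-ND6, 14 of 17 for MT-CO2 and 11 of 17 for MT-ATP6, which fell, and under 9 of 17 for MT-ND4L, 8 of 17 for MT-ND5, 8 of 17 for MT-ATP8 and 7 of 17 for MT-CO1, which rose.

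**Figure D3:**
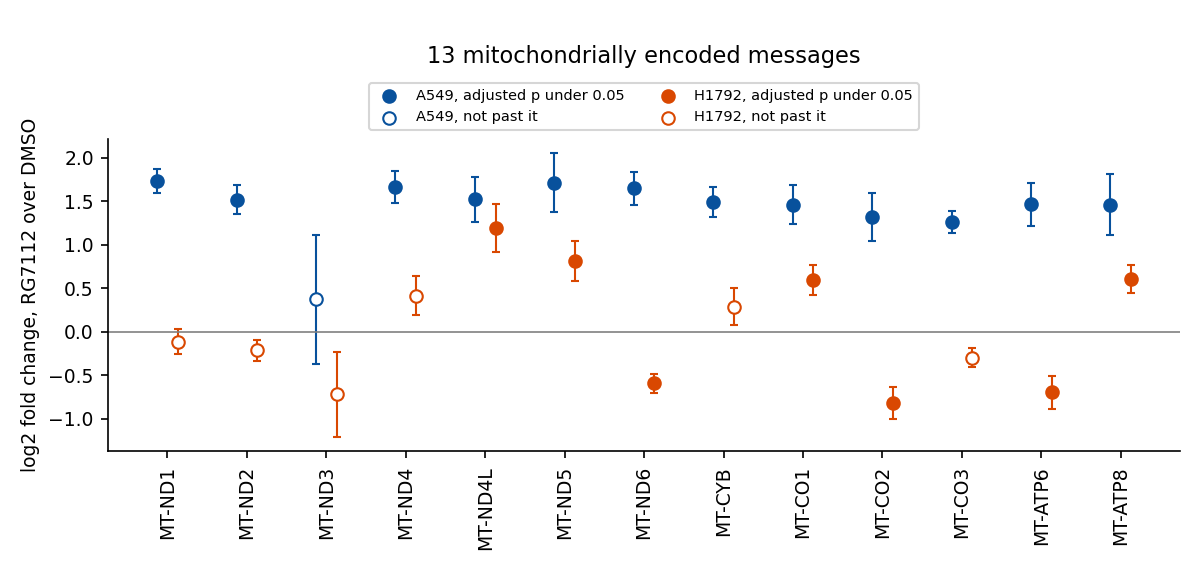
Log2 fold change of RG7112 over DMSO (vertical axis) for the 13 mitochondrially encoded messages in A549 (blue) and H1792 (orange), with bars for the SE and filled symbols for an adjusted p under 0.05. The A549 values lie between 1.26 and 1.73 except for MT-ND3, and the H1792 values between -0.82 and 1.19.

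The make-up of the mitochondrial counts accordingly differed between the treatments of H1792. MT-CO1 held 21.5 ± 0.541% of the mitochondrial counts with DMSO and 34 ± 0.684% with RG7112 (n = 3). MT-CO2 held 19.6 ± 1.93% and 11.8 ± 0.537%, and MT-ATP6 10.1 ± 0.818% and 6.58 ± 0.103%. The samples of the treatments did not overlap in these 3 shares. In A549 the share of MT-CO1 was 41.3, 43 and 29.4% with DMSO and 40.7, 42.5 and 33% with RG7112, so that replicate 3 was the lowest in each treatment and the treatments overlapped. These shares are descriptions without a test.

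In the mitochondrial messages, the difference between A549 replicates ran parallel to the difference between the treatments of H1792. For each mitochondrial gene, the mean log2 CPM of A549 DMSO replicates 1 and 2 was compared with replicate 3. The difference ran from -2.66 (MT-ND3) to 1.00 (MT-ATP8), and across the 13 genes it had a Spearman rho of 0.934 with the H1792 log2 fold change. It was -0.83 for MT-CO2 and 0.64 for MT-CO1, whose H1792 fold changes were -0.82 and 0.59. The H1792 log2 fold change of the 13 genes had a rho of 0.022 with their GC content. Across 9914 genes the rho with the replicate difference was 0.521, and across the 67 nuclear encoded subunits 0.293. The replicate difference was -2.19 for ATP5F1B and -0.79 for SDHA, the nuclear encoded subunits that fell most in H1792. For NDUFS6, which rose most there, it was -0.55. The genes of a sample share its library and are not independent replicates, so rho is a description. The samples behind the axes are different ones, from another cell line, and the A549 samples compared had the same treatment. What the A549 replicates and the H1792 treatments share was not tested.

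**Figure D4:**
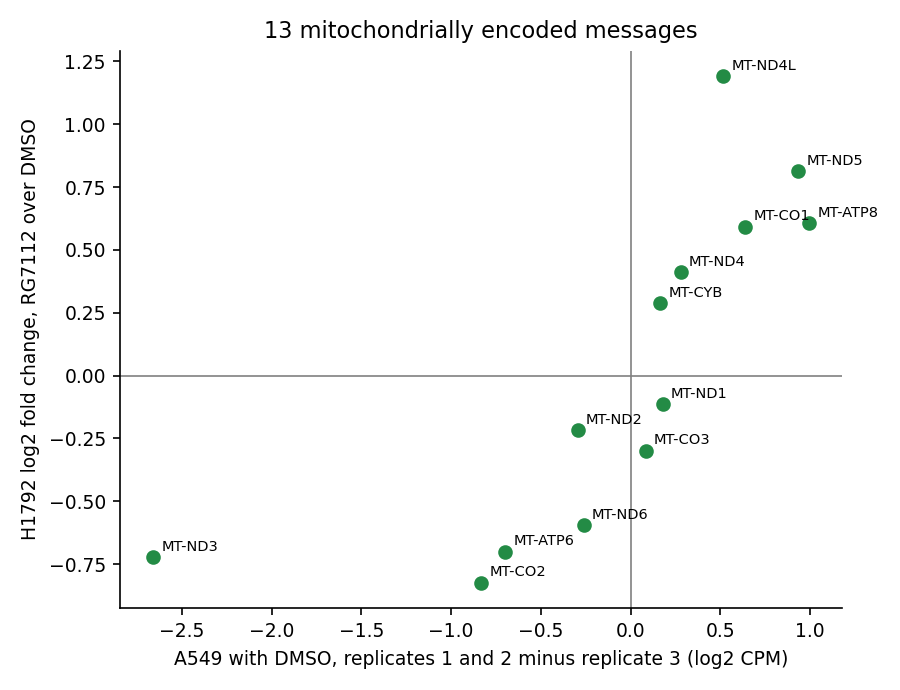
Each point is a mitochondrially encoded message. The horizontal axis gives the difference in log2 CPM between A549 DMSO replicates 1 and 2 and replicate 3, and the vertical axis the log2 fold change of RG7112 over DMSO in H1792. Messages from MT-CO2 at -0.83 to MT-ATP8 at 1.00 rise together on both axes, and MT-ND3 stands to the left.

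Nuclear encoded complex I subunits of H1792 mostly fell or did not pass, with 14 lower, 2 higher and 15 not called of 31 tested. NDUFV1, the NADH-oxidizing flavoprotein, was at 1573, 1962 and 1841 CPM with DMSO and 1107, 919.6 and 754 CPM with RG7112 (log2 fold change -0.88 ± 0.14 (SE), adjusted p = 0.00671). NDUFS3, a subunit of the arm that reaches into the matrix, was at 17.9, 33.4 and 26.5 CPM with DMSO and 6.19, 10.6 and 6.73 CPM with RG7112 (log2 fold change -1.63 ± 0.32 (SE), adjusted p = 0.0106), with counts that another gene in the table repeats. NDUFB2, NDUFA11, NDUFS8 and NDUFB11 fell by 1.03, 1.0, 0.88 and 0.88 on the log2 scale. The calls of NDUFS3 and NDUFB11 held under all 17 alternatives and those of NDUFV1 and NDUFA11 under 16 of 17, whereas that of NDUFB2 held under 7 of 17 and that of NDUFS8 under 8 of 17. Leaving out DMSO replicate 1, DMSO replicate 3, RG7112 replicate 2 or RG7112 replicate 3 lost the calls of both NDUFB2 and NDUFS8, and leaving out RG7112 replicate 1 that of NDUFB2.

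The member that rose most was NDUFS6 (chr5:1801400-1816605 of GRCh38, plus strand), a zinc-binding accessory subunit of complex I. It had 6, 3 and 1 counts with DMSO and 67, 154 and 123 counts with RG7112, or 2.11, 0.691 and 0.435 CPM with DMSO and 17.3, 27.3 and 28.6 CPM with RG7112 (log2 fold change 4.55 ± 0.51 (SE), adjusted p = 0.00316). All RG7112 samples were far above the DMSO samples, whose counts lay near the floor of 3 counts, so the size of this fold change is uncertain. In A549, NDUFS6 was at 9.34, 5.45 and 10.7 CPM with DMSO and 7.26, 8.08 and 13.3 CPM with RG7112. NDUFS1, the largest iron-sulfur subunit, rose from 62.9, 56.7 and 50 to 72.2, 81.6 and 78.7 CPM (log2 fold change 0.53 ± 0.12 (SE), adjusted p = 0.0194), but its log2 fold change was -0.01 after GC correction, its call held under 8 of 17 alternatives, and its counts are the same as those of another gene of the table.

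Complex II split. SDHA (chr5:218241-256700 of GRCh38, plus strand), the flavoprotein that oxidizes succinate, was at 278, 363 and 358 CPM with DMSO and 75.5, 60 and 94.3 CPM with RG7112 (log2 fold change -2.05 ± 0.19 (SE), adjusted p = 0.00272). The membrane anchor SDHD rose from 41.1, 34.8 and 31.3 to 59.3, 47.9 and 56 CPM (log2 fold change 0.68 ± 0.16 (SE), adjusted p = 0.0197). The call of SDHD held under 9 of 17 alternatives and was lost with GC correction (log2 fold change 0.35, edgeR adjusted p = 0.142), with the replicate block and without DMSO replicate 2, DMSO replicate 3 or RG7112 replicate 3, whereas that of SDHA held under all 17. The iron-sulfur subunit SDHB, at 149, 126 and 178 CPM with DMSO and 154, 153 and 135 CPM with RG7112, and the other anchor SDHC, at 224, 245 and 219 CPM with DMSO and 254, 234 and 237 CPM with RG7112, overlapped between treatments. In A549, SDHA was at 79.4, 76.8 and 135 CPM with DMSO and 55, 75.5 and 265 CPM with RG7112, with replicate 3 the highest of each treatment. SDHB was at 66.7, 65.4 and 56.6 CPM with DMSO and 47.1, 40.4 and 52.3 CPM with RG7112 there, SDHC at 209.9, 188 and 234 CPM with DMSO and 210.1, 236 and 193 CPM with RG7112, and SDHD at 30.5, 24 and 27.6 CPM with DMSO and 21.9, 21.4 and 5.96 CPM with RG7112. SDHA has pseudogenes of nearly the same sequence, and how reads were divided among them is not known here.

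In complex III of H1792, 5 of 8 nuclear encoded subunits fell and 1 rose. UQCRC1 was at 675, 788 and 749.8 CPM with DMSO and 431, 459 and 389.7 CPM with RG7112 (log2 fold change -0.71 ± 0.08 (SE), adjusted p = 0.00317), whereas its partner core protein UQCRC2 rose from 80.5, 71 and 83.6 to 104, 109.7 and 116 CPM (log2 fold change 0.57 ± 0.11 (SE), adjusted p = 0.0113). In neither gene did the treatments overlap. With GC correction the log2 fold change of UQCRC2 was 0.081 and no longer past the threshold (edgeR adjusted p = 0.612). CYC1 was at 24.6, 20.5 and 21.3 CPM with DMSO and 14.4, 15.8 and 10.7 CPM with RG7112, short of the threshold (adjusted p = 0.0669). In A549, UQCRC2 was at 81.9, 76.4 and 65.8 CPM with DMSO and 66.4, 62.7 and 57.4 CPM with RG7112. UQCRH fell, with a log2 fold change of -0.58, a call that held under 7 of 17 alternatives and was lost without any 1 of the samples except DMSO replicate 1, and UQCRHL, a nearly identical copy of it, had at most 6 counts in a sample.

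In complex IV of H1792, 5 of 8 nuclear encoded subunits fell and none of the 8 had a log2 fold change above 0. COX5B changed most (log2 fold change -1.28), a call that held under 7 of 17 alternatives and was lost without any 1 of the samples except DMSO replicate 2. NDUFA4 fell from 48.5, 64.7 and 46.1 to 39.7, 31.6 and 30.4 CPM (log2 fold change -0.58 ± 0.18 (SE), adjusted p = 0.0446), and COX7A2 from 96.7, 137 and 129 to 82.2, 71 and 70.4 CPM (log2 fold change -0.62 ± 0.14 (SE), adjusted p = 0.0176). The call of NDUFA4 held under 7 of 17 alternatives, with a log2 fold change of -0.32 (edgeR adjusted p = 0.182) by library size only, and was lost without any 1 of the samples except RG7112 replicate 1. That of COX7A2 held under 10 of 17 and was lost without replicate 2 or 3 of either treatment. COX4I1, the common form of subunit 4, was at 96.7, 114 and 93.1 CPM with DMSO and 85.6, 61.9 and 74.1 CPM with RG7112, without overlap but short of the threshold (adjusted p = 0.0753). In A549, COX4I1 was at 46.7, 44.6 and 55.7 CPM with DMSO and 36.8, 58.9 and 60.4 CPM with RG7112 and COX7A2 at 60.7, 45.1 and 84.2 CPM with DMSO and 51.8, 50.8 and 50.4 CPM with RG7112.

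In the ATP synthase of H1792, 9 of 16 nuclear encoded subunits fell. ATP5F1B (chr12:56638175-56646068 of GRCh38, minus strand), the catalytic beta subunit, had the largest fall among the members, from 366, 521 and 443 CPM with DMSO to 49.8, 55.9 and 29 CPM with RG7112 (log2 fold change -3.22 ± 0.25 (SE), adjusted p = 0.00272), and passed the threshold under all 17 alternatives. The alpha subunit ATP5F1A, which alternates with it in the head, was at 1499.8, 1471 and 1519 CPM with DMSO and 1377, 1261 and 1204 CPM with RG7112 (log2 fold change -0.15 ± 0.07 (SE), adjusted p = 0.138). ATP5F1D, the delta subunit of the central stalk, was at 123, 168 and 163 CPM with DMSO and 72.7, 50.4 and 51.6 CPM with RG7112 (log2 fold change -1.31 ± 0.18 (SE), adjusted p = 0.00467). ATP5ME, a small membrane subunit, was at 10.2, 12.2 and 11.3 CPM with DMSO and 4.64, 3.73 and 3.48 CPM with RG7112 (log2 fold change -1.43 ± 0.26 (SE), adjusted p = 0.00886). The inhibitor of the enzyme, ATP5IF1, was at 7.03, 9.45 and 7.83 CPM with DMSO and 9.02, 8.52 and 9.06 CPM with RG7112 in H1792 and at 10.3, 14.6 and 15.4 CPM with DMSO and 13.6, 10.5 and 17.3 CPM with RG7112 in A549, and its treatments overlapped in both cell lines. Another gene of the table repeats the counts of ATP5IF1.

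The GC content of the genes moved with these results. Across 9113 genes with a known GC content, the H1792 log2 fold change had a Spearman rho of -0.461 with it, and in A549 rho was 0.253 across 9877 genes, a description over genes that share their libraries. The 34 nuclear encoded subunits that fell in H1792 had a median GC content of 53%, and the 29 that did not pass 46.0%. After the correction for GC content, 43 nuclear encoded subunits fell and 1 rose in H1792, while 1636 of all genes fell and 1053 rose.

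**Figure D5:**
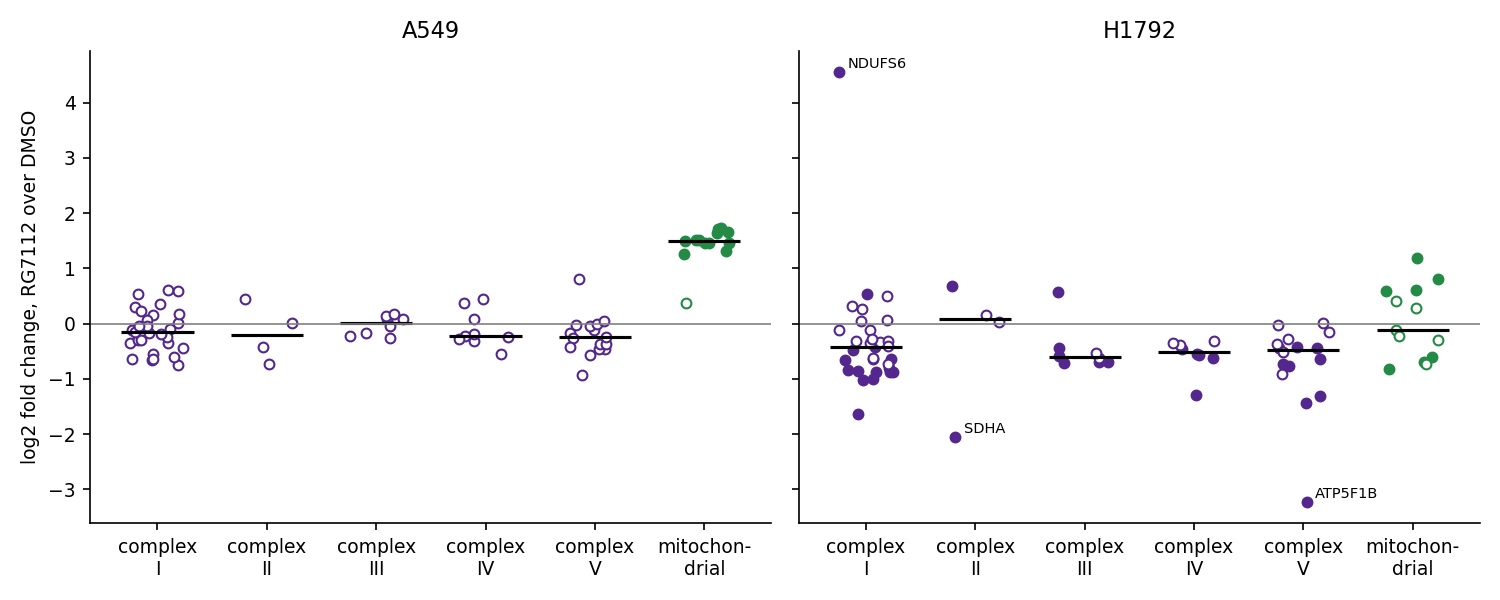
Log2 fold change of RG7112 over DMSO in A549 (left) and H1792 (right) for each nuclear encoded subunit by complex (purple) and for the mitochondrially encoded messages (green). Filled symbols passed an adjusted p of 0.05, open symbols did not, horizontal lines are medians, and members beyond 1.9 in size are named. In A549 the filled symbols are all green and lie above 1, and in H1792 most filled symbols are purple and lie below 0.

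Whether the response differed between the cell lines was tested as an interaction over all 12 samples, and positive values mean a higher log2 response in A549 than in H1792. Of 94 members tested, 19 were higher and 3 lower in A549, against 21.8% of 11666 genes in either direction, 10.4% higher and 11.4% lower. They comprise 9 of the 13 mitochondrial genes, all higher, and 13 of 68 nuclear encoded subunits, of which 10 were higher. With an absolute value over 1 also asked, 15 members were left, against 17.4% of all genes. The largest mitochondrial differences were 2.32 ± 0.23 (SE) for MT-ND6, 2.24 for MT-ATP6 and 2.22 for MT-CO2, the genes that fell in H1792. MT-ND4L, MT-ND5, MT-ATP8 and MT-ND3 did not pass (adjusted p = 0.506, 0.136, 0.127 and 0.431), and the first 3 of these rose in both cell lines.

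Among nuclear encoded subunits the difference was 4.12 ± 1.21 (SE) for ATP5F1B and 2.56 ± 0.70 for SDHA, both of which varied widely among the A549 replicates. The difference of ATP5F1B passed the threshold under 13 of 23 alternatives. It was 2.57 without A549 RG7112 replicate 3 (edgeR adjusted p = 0.095), and it also missed the threshold without A549 DMSO replicate 1, A549 DMSO replicate 2 or any 1 of the H1792 samples. That of SDHA passed under 18 of 23, and missed the threshold without DMSO replicate 2 of either line, A549 DMSO replicate 1, H1792 DMSO replicate 3 or H1792 RG7112 replicate 2. It was -4.30 ± 0.68 for NDUFS6, -1.06 ± 0.27 for NDUFS1 and -0.76 ± 0.18 for UQCRC2, the 3 genes with the lower response in A549. Scaled by library size only, which moved the median of all genes to -0.37, 9 members were higher and 12 lower, with 6 mitochondrial genes among the 9. Leaving out 1 sample gave 12 to 31 members, with 12 without H1792 RG7112 replicate 2 and 14 without A549 DMSO replicate 1, A549 DMSO replicate 2, H1792 DMSO replicate 2 or H1792 RG7112 replicate 3, and without replicate 3 of both A549 treatments there were 33.

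With DMSO alone, the cell lines differed in opposite directions for the 2 genomes. Of 94 members, 15 were higher and 35 lower in A549 than in H1792, against 47.5% of 11666 genes that differed, 25.6% higher and 22% lower. The mitochondrial genes included 9 higher and none lower of 13, with a median log2 difference of 1.02. The nuclear encoded subunits included 2 higher and 32 lower of 68, with a median of -0.59, against 0.09 over all genes. With an absolute log2 difference over 1 also asked, 29 members differed, against 34.9% of all genes. With GC correction, 9 members were higher and 45 lower, while 2370 of all genes were higher and 3568 lower. These comparisons use the same DMSO samples as the responses.

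The largest mitochondrial differences with DMSO, A549 minus H1792, were 1.91 for MT-CO1 (adjusted p = 4.15e-05) and 1.89 for MT-ND4L (adjusted p = 0.000408). MT-ND1 followed with 1.44 (adjusted p = 1.12e-05). MT-CO2, MT-ATP6, MT-ND3 and MT-ND6 overlapped between the cell lines and had log2 differences from -0.12 to 0.25.

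NDUFV1 (chr11:67605653-67612554 of GRCh38, plus strand) had the largest nuclear difference, with 184, 195 and 262 CPM in A549 and 1573, 1962 and 1841 CPM in H1792 (log2 fold change -3.07 ± 0.22 (SE), adjusted p = 1.23e-06). ATP5F1B was at 65.4 ± 56.5 and 443 ± 77.1 CPM (log2 fold change -2.75 ± 0.87 (SE), adjusted p = 0.0226), and NDUFS4, an accessory subunit of complex I, at 18.3 ± 7.24 and 80.3 ± 10.1 CPM (log2 fold change -2.15 ± 0.28 (SE), adjusted p = 0.000103). All A549 samples were lower than all H1792 samples in these genes. The assembly factor NDUFAF4 was at 10.9 ± 1.73 and 47.5 ± 7.04 CPM (log2 fold change -2.12 ± 0.22 (SE), adjusted p = 1.76e-05). The readthrough gene NDUFC2-KCTD14 was at 2.78 ± 0.986 and 13.2 ± 3.34 CPM, and shares exons with NDUFC2. In the other direction, the assembly factor NDUFAF8 was at 20.9 ± 3.45 and 2.46 ± 1.57 CPM (log2 fold change 3.01 ± 0.52 (SE), adjusted p = 0.000668). NDUFS6 was at 8.49 ± 2.72 and 1.08 ± 0.902 CPM (log2 fold change 2.94 ± 0.53 (SE), adjusted p = 0.000884), and COX7A2L, a factor in the joining of complexes III and IV, at 4.25 ± 1.19 and 1.45 ± 1.02 CPM (log2 fold change 1.60 ± 0.60 (SE), adjusted p = 0.0454). COX7A2L had 3, 3 and 6 counts in H1792 with DMSO, at or near the floor of 3 counts, and its difference passed under 7 of 22 alternatives, being lost without any 1 of the 12 samples except A549 RG7112 replicate 2, H1792 DMSO replicate 3 and H1792 RG7112 replicate 1.

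For complex II and the core of complexes III and V, H1792 stood higher with DMSO in SDHA (-1.78), SDHB (-1.26), UQCRC1 (-1.64) and ATP5F1A (-1.10, log2 differences, A549 minus H1792). SDHC, SDHD, UQCRC2 and CYC1 did not pass, with log2 differences of -0.12, -0.39, -0.07 and 0.16. ATP5IF1 was higher in A549 (log2 fold change 0.73 ± 0.27 (SE), adjusted p = 0.0431), a call that held under 9 of 23 alternatives and was lost with GC correction, with DESeq2 and without A549 DMSO replicate 2, A549 DMSO replicate 3 or any 1 of the H1792 samples except RG7112 replicate 1.

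Several subunits exist in a common and a tissue-restricted form. COX4I2 and COX6A2, the restricted forms of COX4I1 and COX6A1, were listed at 0 in all 12 samples, where 3 counts correspond to 0.463 to 1.43 CPM, a floor that covers counting error only. COX7A1, the restricted form of COX7A2, had at most 2 counts in a sample. COX6B2 had 4, 8 and 0 counts in A549 with DMSO, 15, 5 and 12 with RG7112, 3, 4 and 0 in H1792 with DMSO and 0, 0 and 0 with RG7112. It stayed under the filter on low counts. NDUFA4L2, the variant of NDUFA4, was at 5.32 ± 0.117 and 2.86 ± 1.1 CPM in A549 and at 6.33 ± 0.509 and 3.61 ± 0.948 CPM in H1792, without overlap in either line but short of the threshold (adjusted p = 0.253 and 0.124).

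Some common subunits were also almost without counts. NDUFB7, a subunit of every complex I, was listed at 0 in all samples, and COX6A1 had at most 4 counts and NDUFA6 at most 5 in a sample. NDUFV2, NDUFAB1 and ATP5PO stayed at or under 9, 10 and 20 counts. COX6B1 was at 2.16 ± 1.44 CPM in A549 with DMSO and at 3.08 ± 0.912 CPM in H1792 with DMSO. In total 4 members had no count (with COX7B2 as the fourth) and 14 of the 108 were tested in no comparison. These members are listed at such values here, and the cause was not tested.

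Other genes of the organelle were taken as 5 lists. Among the assembly factors outside the 108 members, 3 of 37 tested changed in A549 (8.11%, against 8.38% of all genes). CMC2 and BCS1L, which inserts the iron-sulfur protein of complex III, fell (-1.05 ± 0.21 (SE), adjusted p = 0.0259 and -1.0 ± 0.21 (SE), adjusted p = 0.034), and PNKD rose (0.60 ± 0.13 (SE), adjusted p = 0.0308). In H1792, 1 of 38 rose and 4 fell (13.2% in all, against 34.1% of all genes). COA1 was higher (0.63 ± 0.14 (SE), adjusted p = 0.0183), and UQCC2 and COX14 were lower (-0.89 ± 0.19 (SE), adjusted p = 0.0143 and -1.24 ± 0.27 (SE), adjusted p = 0.0156). These values are log2 fold changes.

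Of the genes for replication, transcription and turnover of mitochondrial RNA, none of 25 passed in A549, against 8.38% of all genes. In that line 3 were lower at an unadjusted p under 0.05 and DESeq2 called 1 lower. TFAM, which packages mitochondrial DNA and starts its transcription, came nearest (log2 fold change -1.22 ± 0.30 (SE), adjusted p = 0.0516). SSBP1, the single-strand binding protein, and MTERF3 followed (-0.95 ± 0.31 (SE), adjusted p = 0.117 and -1.33 ± 0.48 (SE), adjusted p = 0.146). In H1792, 5 of 25 rose and 3 fell (32% in all, against 34.1%). The mitochondrial RNA polymerase POLRMT and the helicase SUPV3L1 fell (-1.85 ± 0.26 (SE), adjusted p = 0.00482 and -1.10 ± 0.16 (SE), adjusted p = 0.00467), and PDE12, which removes poly-A tails in mitochondria, rose (1.57 ± 0.14 (SE), adjusted p = 0.00272).

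Of 11 tested regulators of mitochondrial biogenesis, none passed in A549, against 8.38% of all genes (2 lower at an unadjusted p under 0.05, none with DESeq2). GABPB1, NRF1 and GABPA had the smallest p, with log2 fold changes of -0.77, -0.99 and 0.67. In H1792, 3 of 11 rose and 1 fell (36.4% in all, against 34.1%), with PRKAA1, a catalytic subunit of AMP-activated kinase, at 1.27 ± 0.25 (SE), adjusted p = 0.0108, GABPB1 at 0.54 ± 0.12 (SE), adjusted p = 0.0176 and the coactivator PPRC1 at -1.58 ± 0.31 (SE), adjusted p = 0.0112. Among electron carriers and import factors, 1 of 27 changed in A549 (3.7%, against 8.38%), where cytochrome c (CYCS) fell (-0.92 ± 0.21 (SE), adjusted p = 0.0402). COQ2 and TOMM40 were short of the threshold there (-1.02 ± 0.25 (SE), adjusted p = 0.0522 and -0.71 ± 0.22 (SE), adjusted p = 0.103). In H1792, 2 of 27 rose and 4 fell (22.2% in all, against 34.1%), among them COQ8B, the import channel TOMM40 and the import motor subunit TIMM44 (-1.29 ± 0.17 (SE), adjusted p = 0.00398, -0.66 ± 0.09 (SE), adjusted p = 0.00439 and -0.86 ± 0.13 (SE), adjusted p = 0.00525).

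Of the enzymes of the citric acid cycle and its entry, none of 16 passed in A549, against 8.38% of all genes. At an unadjusted p under 0.05, 3 were lower, and DESeq2 called 2 lower. IDH3A, SUCLG2 and PDHA1 had the smallest p, with adjusted p of 0.0923, 0.0975 and 0.1. In H1792, 3 of 15 rose and 4 fell (46.7% in all, against 34.1%, or 7 of 15 genes). DLST and DLAT, subunits of the 2-oxoglutarate and pyruvate dehydrogenase complexes, rose (3.66 ± 0.39 (SE), adjusted p = 0.00305 and 1.00 ± 0.13 (SE), adjusted p = 0.00393), and citrate synthase (CS) fell (-0.96 ± 0.19 (SE), adjusted p = 0.0112).

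Between the cell lines, the response of the assembly factors was higher in A549 for 2 of 39 and lower for 5 (17.9% in all, against 21.8% of all genes), and that of the mitochondrial DNA and RNA genes higher for 1 of 29 and lower for 4 (17.2%). Of the biogenesis regulators 3 of 11 had the lower response in A549 (27.3%), of the carriers and import factors 2 of 28 the higher and 4 the lower (21.4%), and of the citric acid cycle enzymes 3 of 17 the higher and 3 the lower (35.3%). With DMSO alone, 6 assembly factors were higher in A549 and 5 lower (28.2% in all, against 47.5% of all genes), 2 mitochondrial DNA and RNA genes higher and 5 lower (24.1%), and 2 biogenesis regulators higher (18.2%). Of the carriers and import factors 4 were higher and 8 lower (42.9%), and of the citric acid cycle enzymes 3 were higher and 6 lower (52.9%). In the A549 response the medians of the 5 lists lay between -0.31 and -0.24, and in that of H1792 between -0.18 and 0.24.

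Promoters of the nuclear encoded subunits were searched for the binding letters of NRF1, a regulator named for its role at respiratory genes, since many of these genes moved together in H1792. RefSeq promoters of GRCh38.p14, from 250 bases before to 50 after a start, were found for 64 of the 80 genes, with 77 promoters. The letters GCGCA, any base and GCGC, read on either strand, occurred in 14 of the 77 (18.2%) and in 5.78% of all 35116 promoters. The ETS letters CCGGAAGT or ACTTCCGG occurred in 14.3% and in 4.14%. The NRF1 letters were in 7 of 31 promoters of the genes that fell in H1792 (22.6%) and in 5 of 31 promoters of those that did not pass (16.1%). They were in 1 of 5 promoters of the genes that rose (20%). The ETS letters were in 19.4, 9.68 and 40% of these promoters, in the same order. SDHA, which fell in H1792, had the most matches, 4 in chr5:218070-218369 on the plus strand, shown in capitals.
SDHA promoter: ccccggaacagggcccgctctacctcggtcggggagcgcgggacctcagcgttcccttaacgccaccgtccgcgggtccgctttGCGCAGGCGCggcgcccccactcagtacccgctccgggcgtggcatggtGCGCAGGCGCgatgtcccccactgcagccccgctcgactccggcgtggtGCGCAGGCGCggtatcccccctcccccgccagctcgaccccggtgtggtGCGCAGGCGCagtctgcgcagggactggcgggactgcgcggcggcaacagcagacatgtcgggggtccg
These matches describe letters in the sequence and no binding was measured.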

How the data were processed

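The authors deposited an estimated count per gene for each of the 12 samples, made from paired-end poly-A reads with kallisto 0.45.0 (submitters' processing notes) against GRCh38 transcripts and summed to genes. All values were whole numbers, and no other column of per-sample values was left out (0). Symbols came from GENCODE v29. Genes were kept with edgeR's filterByExpr (minimum count 10, minimum total 15), scaled by TMM and tested with edgeR 4.0.16 (R 4.3.3, limma 3.58.1), robust quasi-likelihood F-test, within each cell line. The difference of the responses and the comparison with DMSO came from 1 fit of all 12 samples. CPM used TMM over all 12 samples, whereas fold changes used TMM within a line. The totals were 2011916 to 6218825 counts per sample, so that 3 counts were 0.463 to 1.43 CPM. Replicates differed beyond sampling noise (chi-square per degree of freedom 5.38 to 25.6).

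Alternatives were RLE factors, library size only, scaling without mitochondrial genes, other filters, DESeq2 1.42.0, GC and length corrections (loess, span 0.5), the replicate number as a block, other thresholds and leaving out samples. The scripts were tested on simulated data. The members and lists were chosen with earlier results of these data known. Genes named were the mitochondrial genes, core subunits and isoform pairs, up to 5 called members with the largest fold in each direction of each comparison without overlap between groups, and up to 3 genes of each list with the smallest p in each response. NDUFB10, NDUFA9 and ATP5F1C in A549 were chosen after their values were seen. So were COX5B, NDUFB2, NDUFA11, NDUFS8, NDUFB11 and UQCRH in H1792, and the members given for low counts.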

Additional observations from a re-analysis of the deposited data

Results flagged for a closer look

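The responses to RG7112 of 22 members differed between A549 and H1792 by the interaction term of edgeR's quasi-likelihood fit over all 12 samples (adjusted p under 0.05 over all genes), and each is given as the log2 response of A549 minus that of H1792. For the mitochondrially encoded messages the differences were 0.95 for MT-CO1, 1.28 for MT-CYB, 1.33 for MT-ND4, 1.63 for MT-CO3, 1.81 for MT-ND2, 1.92 for MT-ND1, 2.22 for MT-CO2, 2.24 for MT-ATP6 and 2.32 for MT-ND6. Over the alternatives, MT-CO1 passed the threshold under 10 of 23, MT-CYB and MT-ND4 under 22 of 23 and the other 6 under all 23. For nuclear encoded subunits with the higher response in A549 they were 0.66 for ATP5F1E, 0.91 for UQCR11, 0.92 for NDUFV1, 0.98 for NDUFA11, 0.99 for NDUFA13, 1.26 for ATP5F1D, 1.31 for NDUFB2, 1.5 for NDUFV3, 2.56 for SDHA and 4.12 for ATP5F1B. These passed under 10 of 23 alternatives for ATP5F1E, 11 for UQCR11, 7 for NDUFV1, 17 for NDUFA11, 9 for NDUFA13, 11 for ATP5F1D, 10 for NDUFB2, 23 for NDUFV3, 18 for SDHA and 13 for ATP5F1B. For those with the lower response in A549 they were -4.30 for NDUFS6, -1.06 for NDUFS1 and -0.76 for UQCRC2, which passed under 22 of 22, 20 of 23 and 20 of 23. With GC correction, 25 members were higher and 1 lower in A549, while 992 of all genes were higher and 834 lower.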

How the results depend on the processing

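In A549, 12 members changed, against 20 with all 12 samples in one fit, 6 at an adjusted p under 0.01 and 7 to 12 leaving out a sample, 15 without replicate 3 of both treatments. In H1792, 45 changed, against 10 when an absolute log2 fold change over 1 was also asked, 21 at an adjusted p under 0.01 and 26 to 45 leaving out a sample. The response differed between the cell lines in 22, against 14 without a filter on low counts, 8 at an adjusted p under 0.01 and 12 to 31 leaving out a sample, 33 without replicate 3 of both A549 treatments. With DMSO 50 differed, against 29 with the fold change rule and 40 to 55 leaving out a sample, 56 without replicate 3 of both A549 treatments. The replicate numbers were not taken to pair the samples, since r between the deviations of same-numbered samples was not over 0.1 in every pair. It was 0.0609 to 0.273 in A549, highest for replicate 3, against -0.209 to 0.136 between different numbers, and -0.0238 to 0.00346 in H1792, against -0.0156 to 0.0177. With the replicate block, 15 members changed in A549, 25 in H1792, 18 differed in response and 51 with DMSO, and with the block and GC correction 16, 24, 23 and 56. The shares of all genes, in the same order, were 8.73, 18.6, 18.7 and 45.6% with the block. They were 10.4, 9.28, 13.3 and 49.3% with the block and GC correction.

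The log2 ratio of mitochondrial to nuclear counts moved by 1.46 to 1.81 in A549 and 0.29 to 0.64 in H1792 leaving out a sample, and by 0.14 in H1792 with GC correction. The median log2 fold change of the mitochondrial genes was 1.39 to 1.64 in A549 and -0.23 to -0.02 in H1792 leaving out samples, and 1.73 and -0.48 with GC correction. That of the nuclear encoded subunits was -0.25 to 0.017 in A549, with 0.017 without DMSO replicate 3, and -0.57 to -0.45 in H1792, where it was -0.63 with GC correction and -0.22 by library size only.

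Signs that turned were as follows, as log2 values, and the cause was not tested. In A549, MT-ND3 lay between -0.12 (without DMSO replicate 2) and 1.74 (without DMSO replicate 3) leaving out a sample. In H1792, library size only gave 0.045 for MT-ND2 and 0.15 for MT-ND1. GC correction gave -0.15 for MT-CYB, -0.12 for MT-ND4, -0.10 for MT-ATP8 and -0.011 for NDUFS1. GC and length correction gave -0.034 for MT-CYB, -0.033 for MT-ND4 and -0.056 for NDUFS1. Replicate block and GC correction gave -0.15 for MT-CYB, -0.14 for MT-ND4, -0.10 for MT-ATP8 and -0.0086 for NDUFS1. With DMSO, MT-ND6 was at 0.14 by library size only, 0.044 with at least 10 counts in every sample and -0.22 to 0.032 leaving out a sample. GC correction gave -0.22 for MT-ATP6, -0.15 for MT-ND3 and -0.052 for MT-CO2, and GC and length correction -0.075 for MT-ATP6 and -0.036 for MT-ND3. The replicate block gave -0.18 for MT-ND3, and with GC correction -0.28 for MT-ATP6, -0.58 for MT-ND3 and -0.13 for MT-CO2. Leaving out a sample gave -0.17 to 0.32 for MT-ATP6, -1.23 to 0.84 for MT-ND3 and -0.083 to 0.48 for MT-CO2, and without replicate 3 of both A549 treatments they were at -0.17, -1.24 and -0.081.

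Over the other alternatives for each member called, 194 of 216 values of genes called in A549 stayed past the threshold in the same direction, 577 of 764 in H1792, 383 of 505 for the difference of the responses and 1070 of 1145 with DMSO. Totals of 2011916 to 6218825 counts limit genes near 3 counts, among them NDUFS6 in H1792 with DMSO.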
